A study of Homo sapiens with 8 samples.

Results

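The 47 genes described here encode the machinery through which newly made secretory and membrane proteins enter the endoplasmic reticulum (ER), lose their signal peptide, receive N-linked sugar and leave in coated vesicles. They were taken by name, and all 47 were found among the 58302 genes of the count table. All 47 also passed the filter on low counts and were among the 14133 genes tested. The libraries came from DLD1, a human colorectal adenocarcinoma cell line, stably transduced with lentivirus. OE-WT cells overexpressed wild-type TRMT6 and TRMT61A, which together form the methyltransferase that places m1A on tRNA, and CTRL cells carried the empty vector. Both groups therefore shared the transduction and differed by the TRMT6/61A insert. Each group had 2 libraries, each sequenced on 2 lanes and deposited as 1 column of counts, and catalytic mutants were not analysed here.

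A signal peptide emerging from the ribosome is bound by the signal recognition particle (SRP), which slows elongation and docks at the SRP receptor on the ER membrane. The ribosome then feeds the chain through the SEC61 channel, assisted by TRAP (the translocon-associated protein complex) and TRAM1, while signal peptidase removes the signal and oligosaccharyltransferase (OST) attaches a preassembled glycan to asparagine. Folded cargo leaves in COPII vesicles, and COPI vesicles return escaped ER proteins and receptors from the Golgi. Secretory epithelial cells carry a large amount of this machinery, and many of its genes are known targets of the unfolded protein response.

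The overexpressed genes checked the labels. TRMT6 had 2092 and 1841 counts in OE-WT against 677 and 683 in CTRL, 3.62-fold higher, and TRMT61A had 1365 and 1327 against 758 and 700, 2.31-fold higher. Library totals ran from 10327498 to 12379671 counts. Of 12 colon epithelial markers, 11 had at least 10 counts in every library, CDX1 being the exception with at most 1. LGALS4 passed this mark narrowly, with 11 to 13 counts. Of 14 fibroblast, endothelial and immune markers, 2 also had at least 10 counts in every library. These were COL1A1 (18 to 22 counts) and CD14 (14 to 31 counts). Of the same 14, 5 were at 0 in every library and none exceeded 31 counts. Their summed level ran from 4.72 to 6.04 CPM (counts normalised to library size) in OE-WT and from 5.20 to 7.23 CPM in CTRL. The 12 epithelial markers summed to 12685 to 13092 CPM in OE-WT and to 11800 to 12113 CPM in CTRL. RNA was drawn from the supernatant of a lysate prepared with cycloheximide, so levels refer to that fraction, and in bulk RNA a change in the number of expressing cells and a change in RNA per cell cannot be told apart.

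The 47 genes moved little, and about as many rose as fell. With edgeR's quasi-likelihood test and an adjusted p below 0.05, 6 of 47 were higher in OE-WT (12.8%, beside 9.44% of all genes tested) and 6 were lower (12.8%, beside 11.6% of all genes tested). Both shares were near the background. The counts for single complexes below rest on 2 to 10 genes each and are read beside the same shares of all genes tested. The median log2 fold change of the 47 was 0.02, beside 0.01 over all genes tested, and the values ran from -0.43 to 0.29. No member combined an unadjusted p below 0.05 with an absolute log2 fold change above 1, which 3.15% of all genes did, although 21 of the 47 had an unadjusted p below 0.05. The OE-WT libraries lay wholly above the CTRL libraries for 18 members (38.3%, beside 29.9% of all genes tested) and wholly below them for 14 (29.8%, beside 30.2%). The genes that rose were SRP9, SRP14, SEC11C, SEC23B, SEC24C and ARCN1, and those that fell were SRPRA, SSR2, SPCS1, RPN2, DDOST and OST4.

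These counts depended on the setting and on single libraries. Calls in all 11 alternatives were kept by SRPRA, RPN2 and DDOST, and none of the 12 genes changed sign in any of them. Scaling by library size alone gave 0 higher and 12 lower, with the median of all genes at -0.08, and removing a GC trend from each library gave 3 higher and 9 lower. DESeq2 called 2 higher and 3 lower. The counts were 2 and 3 without CTRL 1, 5 and 3 without OE-WT 1, 7 and 8 without OE-WT 2, and 6 and 8 without CTRL 2.

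**Figure D1:**
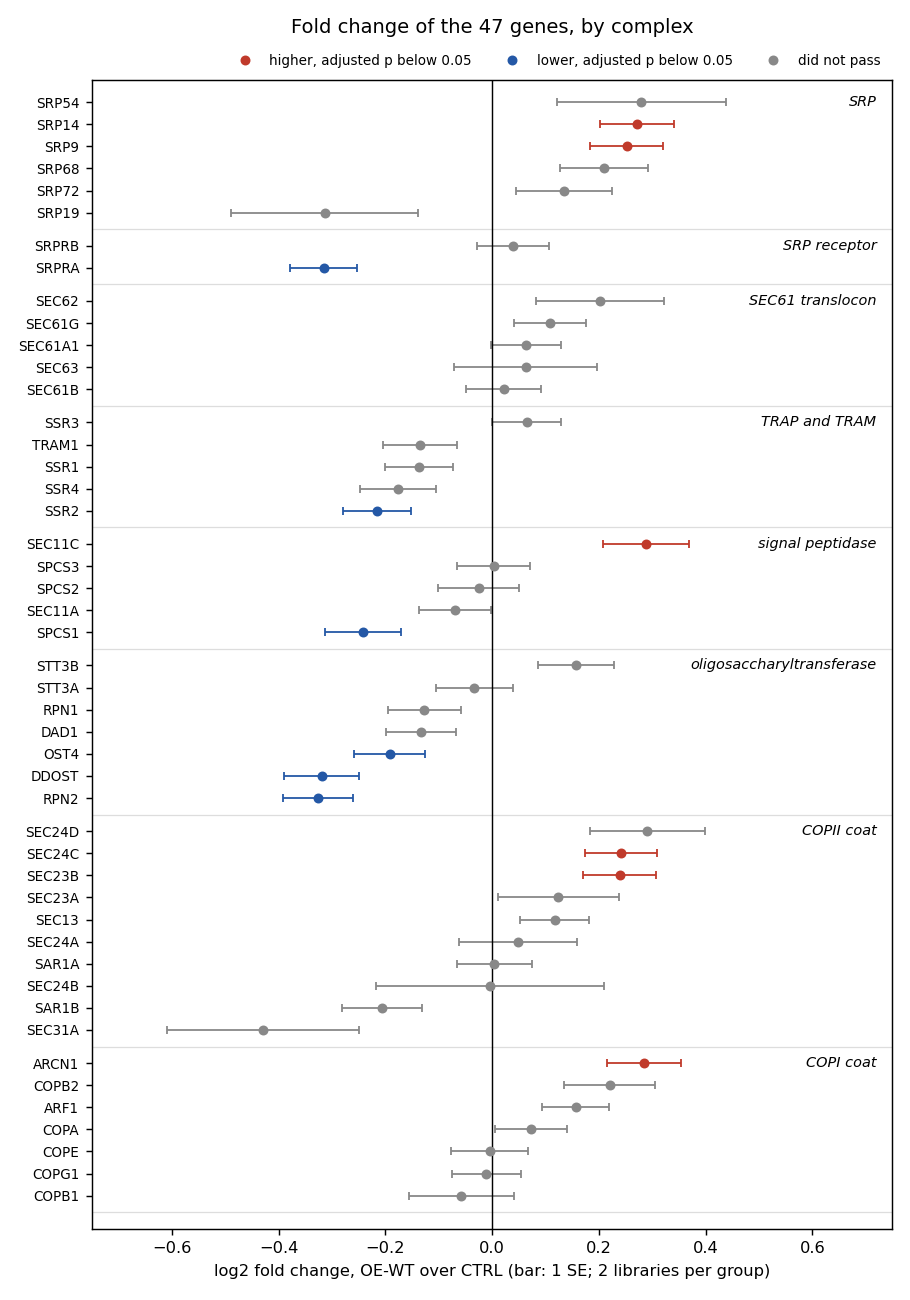
Log2 fold change of OE-WT over CTRL for each of the 47 genes, grouped by complex, with bars of 1 standard error from edgeR (2 libraries per group) and colours for genes that passed an adjusted p of 0.05. The 6 red points (higher) lie between 0.24 and 0.29 and the 6 blue points (lower) between -0.33 and -0.19.

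In the SRP, the RNA-protein particle that meets the nascent chain, 2 of the 6 protein genes rose and none fell. SRP9 and SRP14 encode the heterodimer that binds the Alu end of the particle's RNA and is needed for elongation arrest. SRP9 (ENSG00000143742, chr1:225777813-225790468, plus strand) was at 181 and 165 CPM in OE-WT against 141 and 149 CPM in CTRL. SRP14 (ENSG00000140319, chr15:40035690-40039181, minus strand) was at 203 and 211 CPM against 182 and 161 CPM. The groups did not overlap for either gene. The log2 fold change was 0.25 (SE 0.07, edgeR adjusted p = 0.0114) for SRP9 and 0.27 (SE 0.07, edgeR adjusted p = 0.00765) for SRP14. The SRP9 call was lost in DESeq2, with library sizes alone, with the GC trend removed, and without OE-WT 1 or CTRL 1 (adjusted p up to 0.168), and the SRP14 call with library sizes alone, with the GC trend removed and without CTRL 2 (adjusted p up to 0.126).

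The other SRP proteins did not pass. SRP54, the GTPase that binds the signal peptide, had a log2 fold change of 0.28 (SE 0.16), and SRP68 and SRP72, the heterodimer on the other end of the RNA, had 0.21 (SE 0.08) and 0.13 (SE 0.09). SRP19, an assembly factor for the particle, had the only negative value of the 6, -0.31 (SE 0.18), from 9.97 and 6.98 CPM in OE-WT and 10.7 and 10.3 CPM in CTRL. SRP19 was also the lowest SRP gene per length at 0.903 CPM per kilobase of merged exons, 102-fold below SRP14 at 92.5. Of the merged exons of SRP19, 18.2% overlap another gene on the same strand, where the counting could drop or share reads.

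The particle is built on 7SL RNA, transcribed by RNA polymerase III without a poly(A) tail and so not a target of oligo(dT) selection. The labels name that selection, whereas the study's methods describe ribosomal RNA removal, which does not rest on a poly(A) tail. Which of these made the libraries is not settled in the sources used here. RN7SL2 had 6366 and 6134 counts in OE-WT against 3606 and 2895 in CTRL, a log2 fold change of 1.27 (SE 0.08). RN7SL3 had 233 and 218 counts against 124 and 90, a log2 fold change of 1.40 (SE 0.15), and RN7SL1 was listed at 0 in every library. Both OE-WT libraries lay above both CTRL libraries for the 2 detected copies. The copies are nearly identical, so reads can be assigned to any of them and their values are not independent.

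Of the 2 SRP receptor subunits 1 fell. SRPRA, the GTPase subunit that engages SRP54 (ENSG00000182934, chr11:126262938-126269144, minus strand), was at 241 and 238 CPM in OE-WT and at 298 and 298 CPM in CTRL. The 2 groups did not overlap, with a mean of 240 ± 1.59 CPM (SD, n = 2) against 298 ± 0.245 CPM (SD, n = 2). An SD from 2 libraries is poorly known, so these SDs do not measure how far apart the groups stood. The log2 fold change of -0.32 (SE 0.06, edgeR adjusted p = 0.00103) kept an adjusted p of at most 0.00416 in every alternative run. SRPRB, which anchors SRPRA in the membrane, was at 180 and 200 CPM against 188 and 182 CPM, and the groups overlapped (log2 fold change 0.04, SE 0.07), with 18.4% of its exons covered by a gene on the opposite strand. Within a library, the ratio of SRPRA to SRPRB in CPM was 1.33 and 1.19 in OE-WT and 1.59 and 1.63 in CTRL. A single scaling factor per library cancels in this ratio, but a GC trend does not. As SRPRA was called and SRPRB was not, the ratio restates that call and adds no separate evidence.

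None of the 5 SEC61 translocon genes passed in edgeR, at an unadjusted p below 0.05 either, or in DESeq2. SEC61A1, the channel itself, had the highest CPM of the 5 before division by length, at 1036 and 1071 CPM in OE-WT against 1019 and 997 CPM in CTRL. The small subunits SEC61B and SEC61G had log2 fold changes of 0.02 (SE 0.07) and 0.11 (SE 0.07). SEC62 and SEC63, which serve substrates that enter after translation, had 0.20 (SE 0.12) and 0.06 (SE 0.13). All 5 values were positive under TMM scaling, 3 turned negative with library sizes alone, and 2 with the GC trend removed. SEC61B was the highest of the complex per length, at 110 and 108 CPM in OE-WT and 113 and 102 CPM in CTRL. SEC63 was the lowest, at 14.2 and 15.3 CPM against 13.6 and 14.7 CPM, and the groups overlapped for both genes.

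Of the TRAP subunits and TRAM1, which line the channel and help weak signal peptides through, 1 of 5 fell. SSR2 (TRAP beta, ENSG00000163479, chr1:156009048-156020951, minus strand) was at 237 and 246 CPM in OE-WT against 284 and 276 CPM in CTRL. The groups did not overlap, and the log2 fold change was -0.22 (SE 0.06, edgeR adjusted p = 0.0189). The SSR2 call was lost in DESeq2 (adjusted p = 0.0811), with a replicate block in edgeR (adjusted p = 0.0682), and without OE-WT 1 or CTRL 1. With single libraries left out, its log2 fold change ran from -0.25 to -0.19. SSR1, SSR4 and TRAM1 did not pass, at -0.14 (SE 0.06), -0.18 (SE 0.07) and -0.14 (SE 0.07), although both OE-WT libraries lay below both CTRL libraries for each of the 3. The same held for 30.2% of all genes tested. With library sizes alone SSR1, SSR4 and TRAM1 all gained calls as lower. With the GC trend removed SSR1 and TRAM1 gained them (-0.24 and -0.25), while SSR4 was at -0.03. SSR3, the highest of the complex per length, was at 337 and 360 CPM against 332 and 334 CPM, and SSR1, the lowest, at 192 and 194 CPM against 215 and 210 CPM. Exons of a gene on the opposite strand cover 20.8% of the SSR3 exons, and whether the counting used strand is not given in the sources used here.

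In signal peptidase, 1 of 5 genes rose and 1 fell. SEC11C, one of the alternative catalytic subunits (ENSG00000166562, chr18:59139866-59158832, plus strand), was at 53.1 and 56.6 CPM in OE-WT against 43.3 and 46.6 CPM in CTRL, a log2 fold change of 0.29 (SE 0.08, edgeR adjusted p = 0.0139). SPCS1, a small accessory subunit (ENSG00000114902, chr3:52704955-52711148, plus strand), was at 144 and 158 CPM against 188 and 169 CPM, a log2 fold change of -0.24 (SE 0.07, edgeR adjusted p = 0.0188). Neither pair of groups overlapped. Exons of a gene on the opposite strand cover 56.6% of the SPCS1 exons. The SEC11C call was lost in 6 of 11 alternatives (adjusted p up to 0.149), among them DESeq2, the GC trend removed and the fits without OE-WT 2 or CTRL 1, and the SPCS1 call was lost in DESeq2 and without OE-WT 1 or CTRL 1 (adjusted p up to 0.233). SEC11A, the other catalytic subunit, was at 202 and 222 CPM in OE-WT against 230 and 215 CPM in CTRL, with overlapping groups. SPCS2 and SPCS3 had log2 fold changes of -0.03 (SE 0.08) and 0.00 (SE 0.07).

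In OST 3 of 7 members were lower and none higher, beside 11.6% lower and 9.44% higher of all genes tested. RPN2, a ribophorin of the core complex (ENSG00000118705, chr20:37178410-37241619, plus strand), was at 644 and 687 CPM in OE-WT against 839 and 830 CPM in CTRL. DDOST, the OST48 subunit (ENSG00000244038, chr1:20651767-20661544, minus strand), was at 582 and 633 CPM against 795 and 721 CPM. OST4, a very small membrane subunit (ENSG00000228474, chr2:27070472-27071654, minus strand), was at 167 and 174 CPM against 202 and 188 CPM. For all 3 genes both OE-WT libraries lay below both CTRL libraries.

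RPN2 had a log2 fold change of -0.33 (SE 0.07, edgeR adjusted p = 0.00107), a mean level 20.2% lower, and DDOST had -0.32 (SE 0.07, edgeR adjusted p = 0.00224), 19.9% lower. Both calls held in every alternative run, with adjusted p up to 0.024 and 0.0397. OST4 had -0.19 (SE 0.07, edgeR adjusted p = 0.0422), and its call was lost in 6 of 11 alternatives (adjusted p up to 0.313), among them DESeq2, the GC trend removed and the fits without OE-WT 1 or CTRL 1. Of the DDOST exons, 15.7% overlap another gene on the same strand, and 25.2% of the OST4 exons are covered by a gene on the opposite strand.

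The rest of OST did not pass. RPN1, the partner ribophorin, was at 940 and 1001 CPM in OE-WT against 1093 and 1027 CPM in CTRL (log2 fold change -0.13, SE 0.07). DAD1 was the highest of all 47 per kilobase of merged exons, at 337 CPM, from 233 and 256 CPM against 271 and 265 CPM (log2 fold change -0.13, SE 0.07). The catalytic subunits were STT3A, which acts on chains still in the channel, at 483 and 542 CPM against 554 and 495 CPM, and STT3B, which acts on skipped sites, at 154 and 135 CPM against 128 and 131 CPM. STT3A overlapped between groups (log2 fold change -0.03, SE 0.07) and STT3B did not overlap yet missed the threshold (0.16, SE 0.07). For each of the lower genes RPN2 and DDOST, a ratio to a core subunit that did not pass is given within each library, where the groups did not overlap. As both genes of each ratio were picked by their calls, the ratios restate those calls and add no separate evidence. DDOST over STT3A was 1.20 and 1.17 in OE-WT against 1.43 and 1.46 in CTRL, and RPN2 over RPN1 was 0.686 and 0.686 against 0.768 and 0.808. Summed over the complex, OST stood at 3204 and 3427 CPM in OE-WT and at 3882 and 3657 CPM in CTRL.

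**Figure D2:**
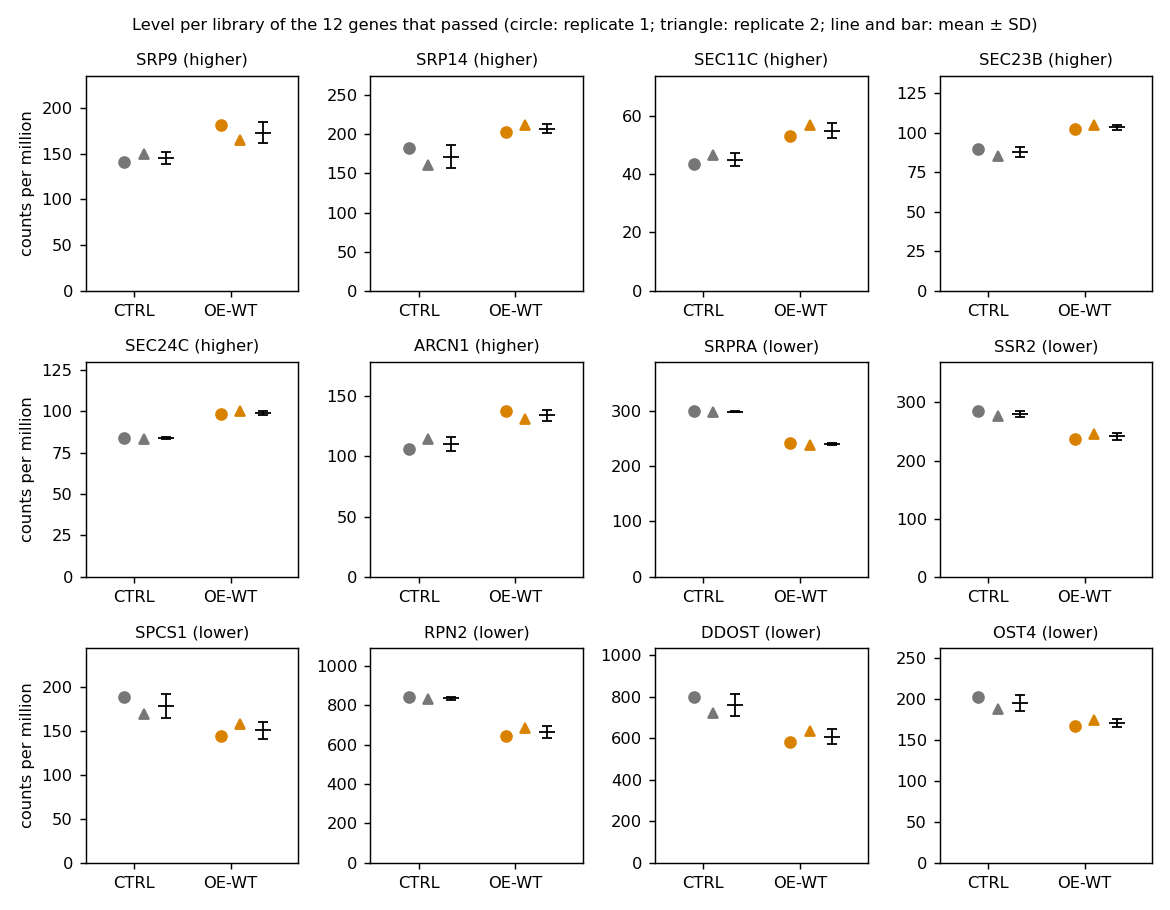
CPM in each library for the 12 genes that passed, with the mean ± SD of 2 libraries per group beside the points (circles, replicate 1; triangles, replicate 2) and axes from 0. The groups do not overlap in any panel; SRPRA is at 241 and 238 in OE-WT against 298 and 298 in CTRL, while SRP14 in CTRL spreads from 161 to 182.

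In the COPII coat, which shapes vesicles leaving the ER, 2 of 10 genes rose and none fell. SEC23B, the GTPase-activating subunit of the inner coat (ENSG00000101310, chr20:18507520-18561415, plus strand), was at 102 and 105 CPM in OE-WT against 89.9 and 85.6 CPM in CTRL. SEC24C, a cargo-binding subunit (ENSG00000176986, chr10:73744372-73772161, plus strand), was at 98.3 and 99.8 CPM against 84.1 and 83.5 CPM. The groups did not overlap for either. Both had a log2 fold change of 0.24 (SE 0.07), with edgeR adjusted p = 0.0157 for SEC23B and 0.0141 for SEC24C. Each of these calls was lost in 6 of 11 alternatives, among them DESeq2, library sizes alone and the fits without OE-WT 2 or CTRL 2, and for SEC24C also without CTRL 1 (adjusted p up to 0.216 for SEC23B and 0.205 for SEC24C), and exons of a gene on the opposite strand cover 42.8% of the SEC24C exons.

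The other 8 COPII genes did not pass. SEC24D had a log2 fold change of 0.29 (SE 0.11), but its groups overlapped, with 54.0 and 40.6 CPM in OE-WT and 36.4 and 40.9 CPM in CTRL. Its value rested on single libraries, from 0.07 without OE-WT 1 to 0.47 without OE-WT 2, and it gained a call without OE-WT 2 or CTRL 2. SEC31A, the outer-cage rod, had a log2 fold change of -0.43 (SE 0.18), from 7.05 and 5.99 CPM against 8.16 and 9.42 CPM. SEC31A was also the lowest member of all 47 per kilobase of merged exons, at 0.824 CPM, though not with the longest or the canonical transcript as the length, with 61 to 116 counts per library, while its cage partner SEC13 was the highest of the coat at 149 and 147 CPM against 138 and 135 CPM. SAR1B, a GTPase that starts coat assembly, had -0.21 (SE 0.08) and its close relative SAR1A 0.00 (SE 0.07). SAR1B and SEC31A gained calls as lower with library sizes alone and with the GC trend removed. SAR1B also gained one with at least 10 counts in every library. With single libraries left out, the log2 fold change of SAR1B ran from -0.32 to -0.11. SEC23A, SEC24A and SEC24B had 0.12 (SE 0.11), 0.05 (SE 0.11) and -0.00 (SE 0.21), and SEC24B spread from 5.70 to 10.6 CPM between the 2 OE-WT libraries.

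In the COPI coat 1 of 7 genes rose and none fell. ARCN1, the delta subunit (ENSG00000095139, chr11:118572390-118603033, plus strand), was at 137 and 131 CPM in OE-WT against 106 and 114 CPM in CTRL, with no overlap. Its log2 fold change of 0.28 (SE 0.07, edgeR adjusted p = 0.00482) lost its call with library sizes alone and without CTRL 1 (adjusted p up to 0.0883). ARF1, the GTPase that recruits the coat, was the highest of the group per length, at 432 and 433 CPM against 392 and 383 CPM, and did not pass (log2 fold change 0.16, SE 0.06). COPB2, the beta-prime subunit, was the lowest per length of merged exons, though COPB1 was the lowest with the canonical transcript. COPB2 was at 87.5 and 78.1 CPM against 64.8 and 77.5 CPM (0.22, SE 0.08), and 34.1% of its exons are covered by a gene on the opposite strand. The alpha, beta, epsilon and gamma subunits COPA, COPB1, COPE and COPG1 had log2 fold changes between -0.06 and 0.07.

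Levels therefore differed far more between members than between groups. From highest to lowest per length, the span was 102-fold in the SRP, 53.2-fold in the SEC61 group, 32.0-fold in COPII and 30.8-fold in COPI. With the same merged-exon length it was 12.3-fold in OST, 3.68-fold in TRAP with TRAM1, 3.26-fold in signal peptidase and 1.45-fold in the receptor. The spans and the order both depended on the length used. With the canonical transcript, chosen after the data were seen, the span was 49.5-fold in the SRP, 137-fold in the SEC61 group, 65.2-fold in COPII, 15.1-fold in COPI, 16.9-fold in TRAP with TRAM1 and 8.90-fold in signal peptidase. With that length SEC61G, SSR4 and RPN1 took the place of SEC61B, SSR3 and DAD1, and the leading gene was kept in 5 of 8 complexes. The lowest gene changed as well, to SPCS3 in signal peptidase, SEC24B in COPII and COPB1 in COPI. The highest and lowest genes within a complex also shared their libraries and so their depth. Annotated pseudogenes, which can draw reads from their parent, were few: of 30 named after a member, 24 were at 0 in every library and only SPCS2P4 and SRP9P1 had at least 10 counts in each.

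Grouped by place of action, the particle and coats differed from the ER membrane complexes in their counts, a split noticed after the values were seen and given as a description. Of the 23 SRP, COPII and COPI genes, whose products are recruited from the cytosol, 5 rose and none fell, with a median log2 fold change of 0.12. Of the 24 receptor, translocon, TRAP, signal peptidase and OST genes, 1 rose and 6 fell, with a median of -0.05, beside the 9.44% higher and 11.6% lower of all genes tested. That median ran from -0.14 without OE-WT 2 to 0.00 without OE-WT 1, so its sign rests on single libraries, and the counts in this set fell to 1 higher and 3 lower without OE-WT 1 and to 0 and 3 without CTRL 1. With library sizes alone the counts became 0 higher and 2 lower against 0 higher and 10 lower, with medians of 0.03 and -0.14, and with the GC trend removed 3 and 2 against 0 and 7. The first set summed to 2281 and 2238 CPM in OE-WT against 2046 and 2082 CPM in CTRL, and the second to 6629 and 7009 CPM against 7549 and 7206 CPM. All 47 together took 0.878% of OE-WT counts and 0.973% of CTRL counts, as shares of raw counts without TMM scaling. With TMM scaling the 47 summed to 8910 and 9247 CPM in OE-WT against 9594 and 9288 CPM in CTRL, a smaller difference.

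Where a function is divided between paralogs, the mean shares of the groups differed by less than 5 percentage points. SEC11C made up 25.9% and 25.4% of the per-length SEC11 level in OE-WT and 20.1% and 22.4% in CTRL. SAR1A made up 61.7% and 60.4% of SAR1 in OE-WT against 55.9% and 59.1% in CTRL. In both families the groups did not overlap. STT3B made up 31.9% and 26.9% of STT3 in OE-WT against 25.4% and 28.0% in CTRL, with overlap. SEC23B held 87.6% ± 1.03 (SD, n = 2) of SEC23 in OE-WT and 86.7% ± 2.31 (SD, n = 2) in CTRL, and SEC24C, the main SEC24 paralog, 65.9% ± 4.48 against 64.4% ± 1.97, both within their spread. With 2 libraries in each group, exact permutation of such a share allows no p below 0.33 (two-sided), so no test is given.

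RefSeq promoters (GRCh38.p14, 250 bases before to 50 after the start) were matched for 41 of the 47 genes, and RPN1, SEC24D, SPCS1, SRPRA, STT3B and TRAM1 had no entry. The core of the unfolded protein response element, TGACGTGG, to which ATF6 and XBP1 can bind, was found on either strand in 10 of the 41 genes (24.4%). It was found in 1.18% of the 10175 tested genes with a promoter and in 0.729% of all 35116 promoters, and its reverse complement contains the shorter motif CCACG. The 10 genes were ARF1, COPA, COPB1, COPB2, SEC23A, SEC24A, SEC62, SRP19, SSR3 and SSR4, of which 8 (all but COPA and SEC23A) held it in the 200 bases up to the start. The sites are shown because the motif was more frequent here than among tested genes, while none of these 10 genes passed the test between groups. Each is given 5′ to 3′ on the strand of the gene with 10 flanking bases and the motif in capitals, and sites printed as CCACGTCA hold the motif on the opposite strand.
ARF1 (chr1:228082682-228082709, plus strand): ccggaggcgcTGACGTGGccgccgtcag
COPA (chr1:160343228-160343255, minus strand): agagggtcgcTGACGTGGaggcgtccga
COPB1 (chr11:14499842-14499869, minus strand): ccacccccttCCACGTCAgccaaggact
COPB2, first site (chr3:139389633-139389660, minus strand): cccggaagttCCACGTCAgtcagtctga
COPB2, second site (chr3:139389826-139389853, minus strand): ctcagcggcaCCACGTCAcggcccttag
SEC23A (chr14:39103222-39103249, minus strand): cccctcctctTGACGTGGcagaggcggc
SEC24A (chr5:134648596-134648623, plus strand): tgagagtcggTGACGTGGcggcgaggcc
SEC62 (chr3:169966780-169966807, plus strand): cctcctcgctCCACGTCAgagggaaccg
SRP19 (chr5:112861165-112861192, plus strand): agtcttcatgCCACGTCAgagactagag
SSR3 (chr3:156554149-156554176, minus strand): ctgataacagCCACGTCAgcaaggaaac
SSR4 (chrX:153794529-153794556, plus strand): cagggaggggCCACGTCAgtgctgccag

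The 10 genes with this motif had a median log2 fold change of 0.07, from -0.31 for SRP19 to 0.22 for COPB2. Of the other 31 genes with a promoter, 6 were higher and 4 lower, with a median of 0.00. The longer ER stress element (ERSE, a CCAAT box spaced from CCACG) was found in none of the 41, beside 0.147% of tested genes, and CCAAT alone in 18 (43.9%, beside 42.8%). CACGTG was found in 5 (12.2%, beside 12.5%) and GGGCGG in 31 (75.6%, beside 77.4%). CCACG was found in 34 (82.9%, beside 56.9%). A match in a window is a description of its letters and not evidence of binding.

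Genes that work next to the 47 fell more often than they rose. Of 122 genes in 10 lists of the same pathway, 120 were tested, and 5 were higher (4.17%) and 27 lower (22.5%), beside the 9.44% and 11.6% of all genes given above. Their median log2 fold change was -0.10. N-glycan trimming, the step directly after OST, had 5 lower and 2 higher of 11. MAN1B1 was at -0.42 and GANAB, the glucosidase II catalytic subunit, at -0.36, while the mannosidase gene MAN1A2 was at 0.77 and MGAT2 at 0.31. Cargo receptors and retrieval followed with 9 lower and 1 higher of 23, where ERGIC3 was at -0.39 and TMED4 at -0.38 and TMED2 at 0.21, the last lost in 7 of 11 alternatives (adjusted p up to 0.376), among them DESeq2 and the fits without OE-WT 2 or CTRL 2. Of the 17 genes for tail-anchored and EMC insertion 4 were lower, led by EMC10 at -0.62 and CAMLG at -0.35, and of the 9 for the multipass translocon 2 were lower, NOMO1 at -0.44 and NOMO2 at -0.25, close copies between which reads can be divided. The NOMO2 call was lost in 6 of 11 alternatives (adjusted p up to 0.343), among them DESeq2 and the fits without OE-WT 2 or CTRL 1, and the CAMLG call in DESeq2 and without OE-WT 2 or CTRL 2.

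The lists nearest to OST and the coats did not all move the same way. Among the 6 OST accessory genes tested, MLEC rose (0.24), and TUSC3, a thioredoxin-like subunit of STT3B complexes, fell from 27 and 18 counts in CTRL to 2 and 1 in OE-WT, 12.8-fold by depth (95% exact interval 4.10 to 64.2, counting error only). TUSC3 passed the count filter only through its CTRL counts, and its OE-WT counts lay below the floor of 3 counts. It was not tested with at least 10 counts in every library, so the size of its fall is poorly known. Of 24 genes that build the lipid-linked glycan 1 fell (DOLPP1, -0.39), and of 6 COPII exit-site organisers tested none passed, nor any at an unadjusted p below 0.05. Among 14 other COPI and ARF genes ARF3 rose (0.30) and ARFGAP1 fell (-0.32), and of 2 translocon paralogs tested TRAM2 fell (-0.21), a call lost in 8 of 11 alternatives (adjusted p up to 0.335), among them RLE scaling, DESeq2 and the fits without OE-WT 1, OE-WT 2 or CTRL 1. Of 8 regulators of the unfolded protein response 3 fell and none rose, beside 11.6% lower and 9.44% higher of all genes tested. Among the 3 were EIF2AK3 (-0.62) and XBP1 (-0.36). All these passed an adjusted p of 0.05 in edgeR. DESeq2 did not call MGAT2, ARFGAP1 or EIF2AK3, leaving out 1 library also ended the calls of MGAT2 (CTRL 1), MLEC (OE-WT 2) and EIF2AK3 (CTRL 2), and library size alone ended those of MLEC, MGAT2 and ARF3. The companion counts ranged from 1 higher and 37 lower with library sizes alone to 3 and 15 in DESeq2.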

How the data were processed

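The members and gene lists were chosen with earlier results of these data known. RNA-seq was made from 4 libraries; per the labels, poly(A)+ RNA was taken with oligo(dT) beads and made into strand-specific libraries, whereas the study's methods describe ribosomal RNA removal. The deposited values are raw gene counts, 1 column per library with the lanes combined. The submitters' processing notes name HISAT2 2.2.1, featureCounts 2.0.0, DESeq2 1.34.0 and GRCh38, while the study's methods name HTSeq and edgeR; the annotation release and the strand setting are not given in the sources used here. The study's methods speak of more biological replicates than the 2 libraries per group analysed here. The series' design text says that each group was grown in duplicate, but not how far apart the cultures were kept, so p-values measure only the spread between these libraries, which may be partly technical.

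Ensembl IDs were matched to GENCODE 44 (57532 of 58302 IDs had a symbol). Genes passing edgeR's filterByExpr (minimum count 10) were scaled by TMM and tested with edgeR 4.0.16 (glmQLFit, glmQLFTest; R 4.3.3), with Benjamini-Hochberg adjustment over 14133 genes; CPM used the same scaling. The standard error is the log2 fold change over the square root of F. Alternatives were relative log expression, library size only, DESeq2 1.42.0, 2 other filters, a replicate block, each library left out and a GC trend removed (lowess, span 0.3). A floor of 3 counts equalled 0.233 to 0.302 CPM. Counting error alone does not cover library preparation. The 2 libraries of a group differed beyond sampling noise (chi-square over degrees of freedom 4.44 in CTRL and 4.81 in OE-WT), so they were not the same library sequenced again. That check cannot tell separate cultures from repeated preparations of the same RNA. Each library was counted as a replicate. All 47 members were named, with library values for those that passed and for the highest and lowest per length of each complex; companion genes were named as the 2 largest changes in each direction among those that passed, in each list. Sequences of the 7SL RNA copies are not reported here.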

Additional observations from a re-analysis of the deposited data

How the results depend on the processing

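Of the 6 higher and 6 lower members, library size alone left 0 and 12, DESeq2 2 and 3, and no filter beyond 1 count 3 and 5; removing the GC trend left 3 higher and 9 lower. Leaving out a library gave 2 to 7 higher and 3 to 8 lower, the fewest without CTRL 1. The replicate block, run although same-numbered libraries did not deviate together (r = -0.07), gave 7 higher and 4 lower, without the calls of SSR2 and OST4 (adjusted p 0.0682 and 0.115) and with one for SEC24D (0.0396). The median log2 fold change of the members was -0.071 with library size alone, against 0.02. The SRP, COPII and COPI genes had 0 higher and 2 lower with library size alone, 2 higher in DESeq2, 3 higher without the filter, 1 lower with at least 10 counts in every library, and 3 higher and 2 lower with GC removed; leaving out a library gave 2 to 6 higher and 0 to 1 lower. The membrane complexes had 0 higher and 10 lower with library size alone, 0 and 3 in DESeq2, 0 higher without the filter and 0 with GC removed; leaving out a library gave 0 to 1 higher and 3 to 7 lower. Companion genes went from 5 higher and 27 lower to 1 higher with library size alone and to 3 and 15 in DESeq2. The leading gene per length was kept in 5 of 8 complexes with the longest or the canonical transcript. The causes were not tested. Of the 35 members that did not pass, 11 gained a call in some alternative. The fits without a library assume that the lone library varied like the others. With 2 libraries per group, the log2 fold change of a gene near 10 CPM such as SEC31A or SRP19 carried a standard error of 0.18, and SEC24B 0.21, against 0.06 to 0.08 for the 12 that passed.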
